A study of Mus musculus with 44 samples.

Results

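Cells that had switched on a bone-specific reporter were compared with cells of the same cultures that had not. The comparison used 18 arrays of the series' 44, those titled Exp100, Exp105 and Exp106 with Pos or Neg, which are 6 of the series' 18 RNA samples, each hybridised to the Affymetrix array types A, B and C. The cells came from the calvaria (skull cap) of mice described as 7 days old and carried pOBCol2.3GFP, a fragment of the type I collagen promoter that drives green fluorescent protein (GFP). They were grown in DMEM with fetal calf serum for 7 days, with fresh medium on day 2 and day 5. Ascorbic acid and beta-glycerophosphate were then present until day 17, in GFP-positive and GFP-negative cells alike. The cells were then sorted, which gave 1 GFP-positive and 1 GFP-negative RNA sample in each of the 3 experiments. Apart from their names, nothing says whether the experiments came from different animals or culture batches, so that p-values measure the spread between samples, which may be technical. No strain or sex is given in those labels. The source labels place the cells of Exp106 in the calvaria where those of Exp100 and Exp105 say cell culture, although all 3 descriptions give the same culture steps. The 6 sorted samples of day 7 (Exp99, Exp101 and Exp103) carried pOBCol3.6GFP and had no additions, and they entered the fit for a shared estimate of the spread. All 36701 probe sets of the array set were in scope, and 22099 were bright enough to be tested. The arrays of Exp106 stood apart from those of Exp100 and Exp105, so every effect is also given by experiment.

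As background, the osteoblast is the bone-forming cell. It deposits a matrix of type I collagen that later mineralises, and it matures from a mesenchymal progenitor toward the osteocyte, a cell buried in that matrix. The Col2.3 fragment is active in differentiated osteoblasts and osteocytes and not in most progenitors, so the negative fraction can hold progenitors, fibroblast-like cells and blood-derived cells of the calvarial digest. Ascorbic acid is the cofactor that collagen hydroxylation needs, and beta-glycerophosphate is a source of phosphate for mineral. Since RNA was taken from a sorted pool, a lower level from fewer cells of a type and one from less RNA per cell cannot be told apart.

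Ibsp, bone sialoprotein, shows what the sort separated. Its intensity was 12716, 26606 and 11864 in the GFP-negative and 57656, 75113 and 100227 in the GFP-positive fractions of Exp100, Exp105 and Exp106, and values given in threes below keep this order. Every positive sample lay above every negative one. The log2 difference, GFP-positive minus GFP-negative on log2(intensity + 32), was 2.25 ± 0.33 (SE, n = 3 pairs, adjusted p = 0.0158). Here and below the SE is that of the limma fit to all 12 sorted samples of both days. It is not the spread of the 3 pairs alone. Dmp1, a matrix protein of late osteoblasts and osteocytes, had 299, 835 and 172 in the GFP-negative and 3745, 8719 and 626 in the GFP-positive fractions and differed by 2.85 ± 0.57 (adjusted p = 0.0458), with the positive sample of Exp106 below the negative one of Exp105. Phex, a cell surface peptidase that bone cells need to keep phosphate in the body, was read by 3 probe sets. The C probe set with the larger values had 2462, 3412 and 2214 in the negative and 37770.3, 58176 and 49973 in the positive samples, a difference of 4.16 ± 0.49 (adjusted p = 0.00781), and the second C probe set gave 4.90 ± 0.33. The A probe set was too dim to be tested, with 52.7, 133 and 280.0 against 699, 1738 and 214, and ran the other way in Exp106. The suffixes of both C probe sets mark designs that may share sequence with other transcripts. Alpl, the alkaline phosphatase needed for mineral, differed by 0.63 ± 0.20 (adjusted p = 0.165) and did not pass. Col1a1, the gene whose promoter drives the reporter, was at or next to the top of every A array, where the normalisation between arrays fixes its value (difference 0.06 ± 0.12). On the deposited scale its difference was 0.16. A further Col1a1 probe set had 17295, 15099.8 and 106380.0 in the negative and 13172, 15695 and 120546 in the positive samples, with both fractions of Exp106 far above the others and no call (-0.05 ± 0.15, adjusted p = 0.895), and it was chosen after its values were seen. Runx2, Sp7, Enpp1, Bglap, Spp1, Mepe, Sost and Ifitm5 are not analysed here.

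Of 22099 probe sets tested, 710 (3.21%) passed limma at a Benjamini-Hochberg adjusted p under 0.05, and they were higher in GFP-positive cells for 221 (1.0%) and lower for 489 (2.21%). With 1 probe set per gene this was 430 of 10613 genes (4.05%), 138 higher (1.3%) and 292 lower (2.75%), and all counts of list members below are read against these shares. The median difference over all tested genes was -0.01. The fit took the fractions of 1 experiment as a pair (experiment as a block). Without the replicate block 282 probe sets passed, 63 higher and 219 lower, or 174 genes (1.64%). With only the 6 day 17 samples in the fit 89 passed, 27 higher and 62 lower. Every called probe set moved the same way in all 3 experiments, as did 35.8% of those tested. The positive and negative samples did not overlap for 576 of the called probe sets, against 12.7% of those tested.

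The distance of Exp106 from the others was measured on all samples and on the differences. On arrays A, B and C its samples had a mean correlation of 0.73, 0.636 and 0.683 with the other sorted day 17 samples, which had 0.906, 0.838 and 0.756 among themselves. Across tested probe sets the difference in Exp100 had a Pearson correlation of 0.322 with that in Exp105 and 0.154 with that in Exp106, and Exp105 and Exp106 had 0.157. These describe probe sets that share arrays, not replicates. Leaving out Exp106 gave 1015 called probe sets, leaving out Exp100 168 and leaving out Exp105 213. Of the 147 called genes covered by the naming rule, 130 were called without Exp106, 52 without Exp100, 64 without Exp105 and 77 without the block. A gene said below to have held is among the 37 called in all of these refits, and not all 37 are pointed out. Aspn and Fmod also held.

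**Figure D1:**
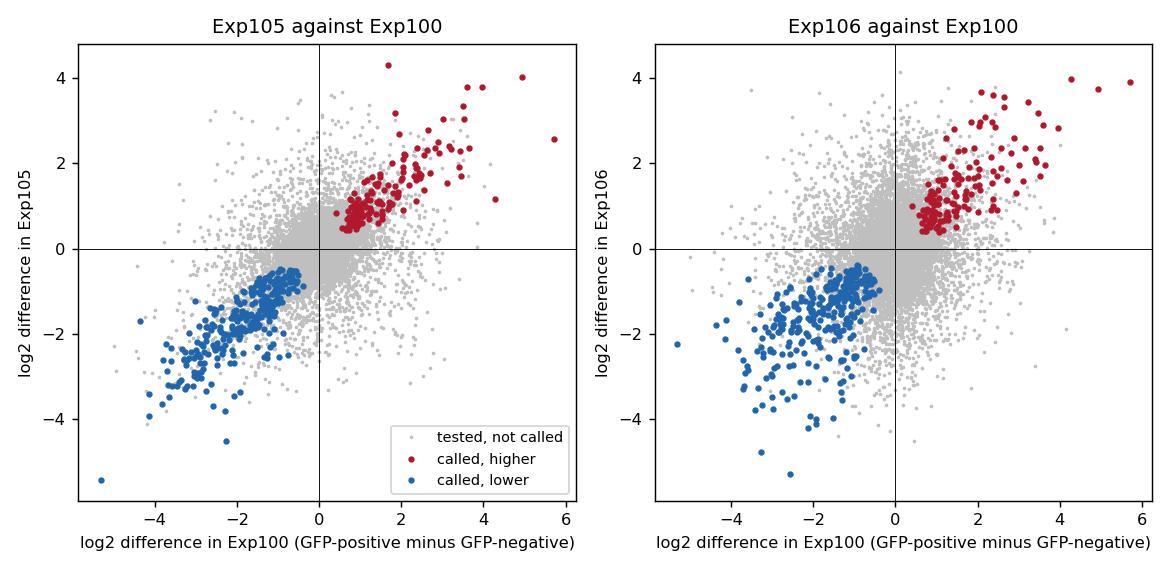
Log2 differences (GFP-positive minus GFP-negative) of 10613 tested genes in Exp105 (left) and Exp106 (right) against those in Exp100. Red and blue points are genes called higher or lower, grey points are not called, and the grey cloud of Exp106 has little slope against Exp100 (Pearson correlation 0.154 over probe sets, 0.322 for Exp105).

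Macrophage genes differed between the experiments. Of 35 tested members of a list of macrophage and leukocyte genes, 34, 31 and 15 lay lower in GFP-positive cells, and the list's medians were -2.01, -1.50 and 0.10. The summed intensity of all 52 measured members was 219916, 144653 and 140003 in the negative and 46219.9, 53305 and 166933 in the positive fractions. Csf1r, the receptor for the macrophage growth factor, had 6270.4, 3324 and 1624 in the GFP-negative and 1009, 734 and 1894 in the GFP-positive fractions. Lyz2, the lysozyme of macrophages, had 36095, 24935 and 14982 in the GFP-negative and 5557, 4894 and 18284 in the GFP-positive fractions. In Exp106 neither gene was lower in the positive fraction, while in Exp100 and Exp105 both were. Tyrobp, a signalling adaptor of myeloid cells, and Cd68, a lysosomal protein of macrophages, had differences of -2.99, -2.22 and 0.59 and -2.32, -1.43 and 0.40. Coro1a, which binds actin in leukocytes, was called, alone in the list (-2.21 ± 0.44, adjusted p = 0.0462, differences -2.72, -2.47 and -1.44). Without Exp106 the list counted 11 genes lower and 0 higher. The part of these cells in the falls described below was not tested.

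Fibroblast and progenitor genes were the marker list with the most calls. The lists were written with earlier results of these data known, so their counts are descriptions and no test of a cell type. Among 21 tested osteoblast and osteocyte genes 4 were higher (Dmp1, Ibsp, Bambi and Pth1r) and 2 lower (Postn and Cdh11), with a median of 0.47 and medians of 0.37, 0.25 and 0.26 in single experiments. The refits gave, as genes higher and lower, 1 and 0 without Exp100, 2 and 0 without Exp105, 4 and 2 without Exp106, and 0 and 2 without the block. Without the block Ibsp and Dmp1 did not pass (adjusted p = 0.369 and 0.183). Among 28 fibroblast and progenitor genes 16 were lower and 0 higher, with a median of -1.68 and -1.43, -1.32 and -1.69 by experiment. Rises and falls in the list numbered 0 and 13 without Exp100, 0 and 13 without Exp105, 0 and 17 without Exp106, and 0 and 10 without the block. Its leading falls were Sfrp2, Cxcl12, Aspn and Mgp, while the matrix proteoglycan Dcn did not pass (-0.41 ± 0.13, adjusted p = 0.154). Smooth muscle and pericyte genes had 4 of 13 lower and 1 higher, with medians of -1.14, -0.95 and -0.77, and in the refits 0 and 2 without Exp100, 1 and 2 without Exp105, 0 and 6 without Exp106, and 0 and 2 without the block. Chondrocyte genes had 1 of 13 higher (Col11a2) and 2 lower, the collagen-binding proteoglycan Fmod (-1.69 ± 0.17, adjusted p = 0.00409) and the cartilage matrix protein Matn4 (-2.69 ± 0.26, adjusted p = 0.00369). Of adipocyte genes (6 tested), Scd1 was higher and Lpl, lipoprotein lipase, lower (-2.31 ± 0.32, adjusted p = 0.013). Of neural and Schwann cell genes (8 tested), Ncam1 was higher and the myelin protein Pmp22 lower (-1.30 ± 0.26, adjusted p = 0.0439). None of 7 endothelial, 7 osteoclast or 16 skeletal muscle genes passed limma. The endothelial cadherin Cdh5 and the receptor Tie1, an endothelial kinase, were near the floor of the arrays, with 41.2, 40.7 and 33.9 and 27.5, 42.8 and 41 in the negative fractions and 31.9, 118 and 39.5 and 20.3, 43 and 21.2 in the positive ones. Of 30 genes induced by cell dispersal, Klf4 was higher and no other passed, and the list's medians were -0.16, 0.15 and -0.15.

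**Figure D2:**
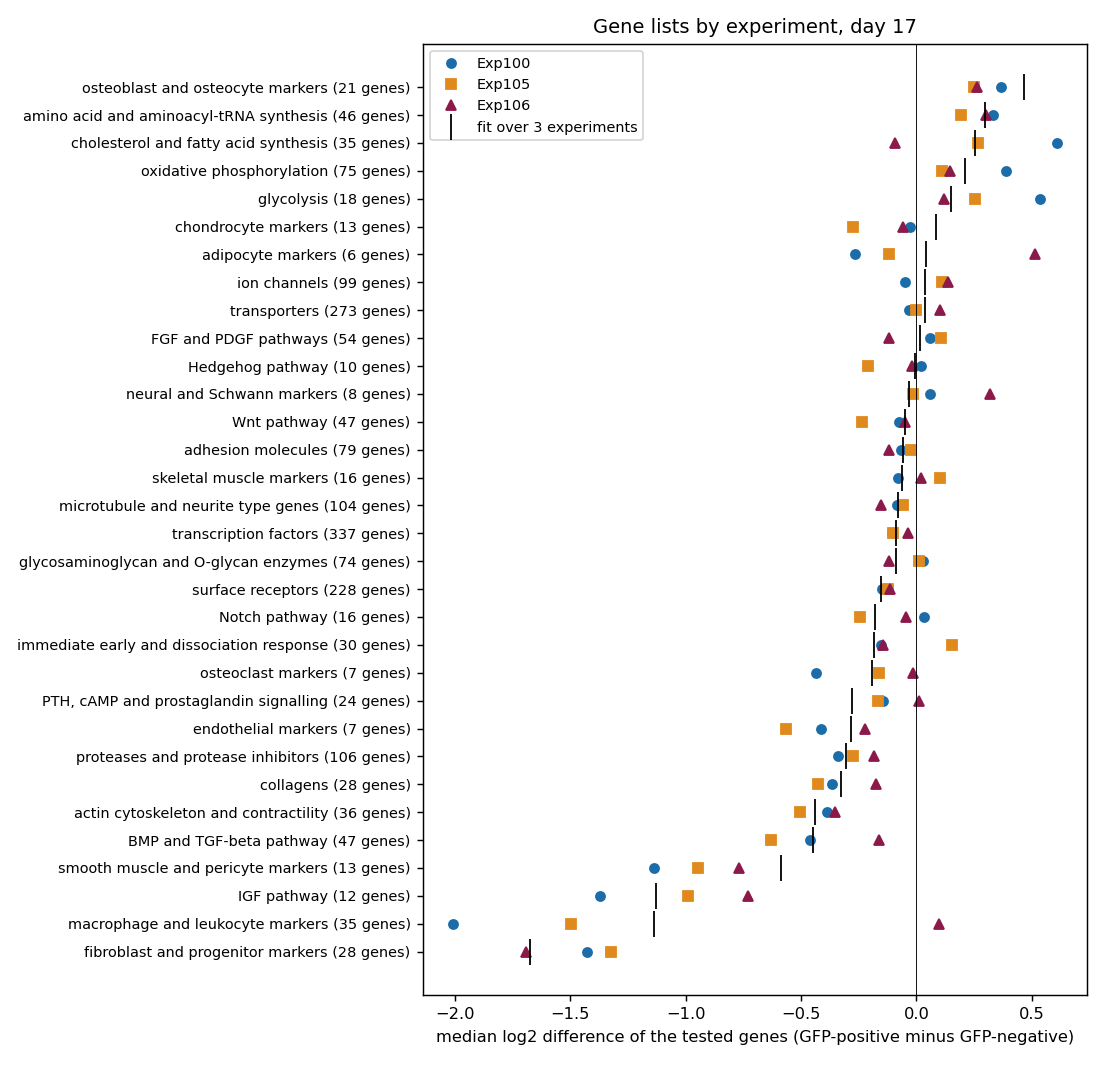
Median log2 difference (x axis, GFP-positive minus GFP-negative) of the tested genes of each list (y axis) in Exp100, Exp105 and Exp106, with the median of the fitted differences as a bar, which can lie outside the single medians since a median of means is not a mean of medians. The macrophage list reads -2.01, -1.50 and 0.10 in the 3 experiments and the fibroblast list -1.43, -1.32 and -1.69.

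The 10 largest rises, Ackr3 and Dmp1 among them, included genes outside the osteoblast list. Phex was not ranked, since its untested array A probe set stands for the gene. Ptprz1, a receptor tyrosine phosphatase, had 161, 546 and 467 in the GFP-negative and 5891, 9286 and 6578 in the GFP-positive fractions (4.23 ± 0.51, adjusted p = 0.00832). Vit, vitrin, a matrix protein, had 2108, 1627 and 2154 in the GFP-negative and 33223, 22951 and 15476 in the GFP-positive fractions (3.53 ± 0.46, adjusted p = 0.0105). Cdo1, the dioxygenase that commits cysteine to breakdown and taurine synthesis, had 2843, 5871 and 363 in the GFP-negative and 26784, 29741 and 4253 in the GFP-positive fractions (3.0 ± 0.29, adjusted p = 0.0035), and its level in Exp106 was far below that in the others in both fractions. The positive fractions did not overlap the negative ones for Ptprz1 and Vit, and for Cdo1 they overlapped through Exp106. Cspg4, the proteoglycan NG2 of pericytes and other progenitors, had 278, 2847 and 220.0 in the GFP-negative and 6027, 6359 and 3939 in the GFP-positive fractions (3.14 ± 0.59, adjusted p = 0.0368), a small difference in Exp105 and large ones in the other experiments. St3gal5, which makes the ganglioside GM3, rose (2.97 ± 0.51, adjusted p = 0.0281), Entpd3, an ectoenzyme that splits extracellular ATP (2.78 ± 0.34, adjusted p = 0.00853), and Cox6a2, the muscle-type subunit of cytochrome oxidase (2.99 ± 0.29, adjusted p = 0.00369). Col11a2, a minor fibrillar collagen chain, had differences of 5.71, 2.56 and 3.90. Of these rises, Ackr3 and Cox6a2 held.

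The 10 largest falls included genes of secreted proteins. C1qtnf2, a secreted C1q-like protein, had 8965, 6167 and 2251 in the GFP-negative and 195, 113 and 452 in the GFP-positive fractions (-4.32 ± 0.62, adjusted p = 0.0157), with a smaller difference in Exp106 (-2.24) than in Exp100 (-5.31). Ccn3, a matricellular protein of the CCN family, had 16622, 10495 and 14944 in the GFP-negative and 1149, 811 and 2858 in the GFP-positive fractions (-3.28 ± 0.28, adjusted p = 0.00262). Egfl6, an integrin-binding matrix protein, had 58176, 26674 and 24879 in the GFP-negative and 3274, 2488 and 5669.9 in the GFP-positive fractions (-3.22 ± 0.33, adjusted p = 0.00458). For all 3 genes every negative sample lay above every positive one. Mxra7, a membrane protein named for matrix remodelling, fell (-3.35 ± 0.22, adjusted p = 0.00116), Prss23, a serine protease (-3.29 ± 0.20, adjusted p = 0.00116), and Rhoj, a small GTPase of the Cdc42 family (-3.25 ± 0.25, adjusted p = 0.00181). Cyp1b1, a cytochrome P450 induced through the aryl hydrocarbon receptor, had 2136, 1429 and 5242 in the GFP-negative and 91.8, 64.3 and 1625 in the GFP-positive fractions (-3.24 ± 0.46, adjusted p = 0.0154), with the positive sample of Exp106 above the negative one of Exp105. The imprinted RNA Meg3, the complement protease C1s1 and Sfrp2 complete the 10 (-3.43 ± 0.17, adjusted p = 0.00116, -3.77 ± 0.33, adjusted p = 0.00268 and -3.37 ± 0.20, adjusted p = 0.00116). Of these genes Ccn3, Egfl6, Mxra7, Prss23, Rhoj, Meg3, C1s1 and Sfrp2 held.

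**Figure D3:**
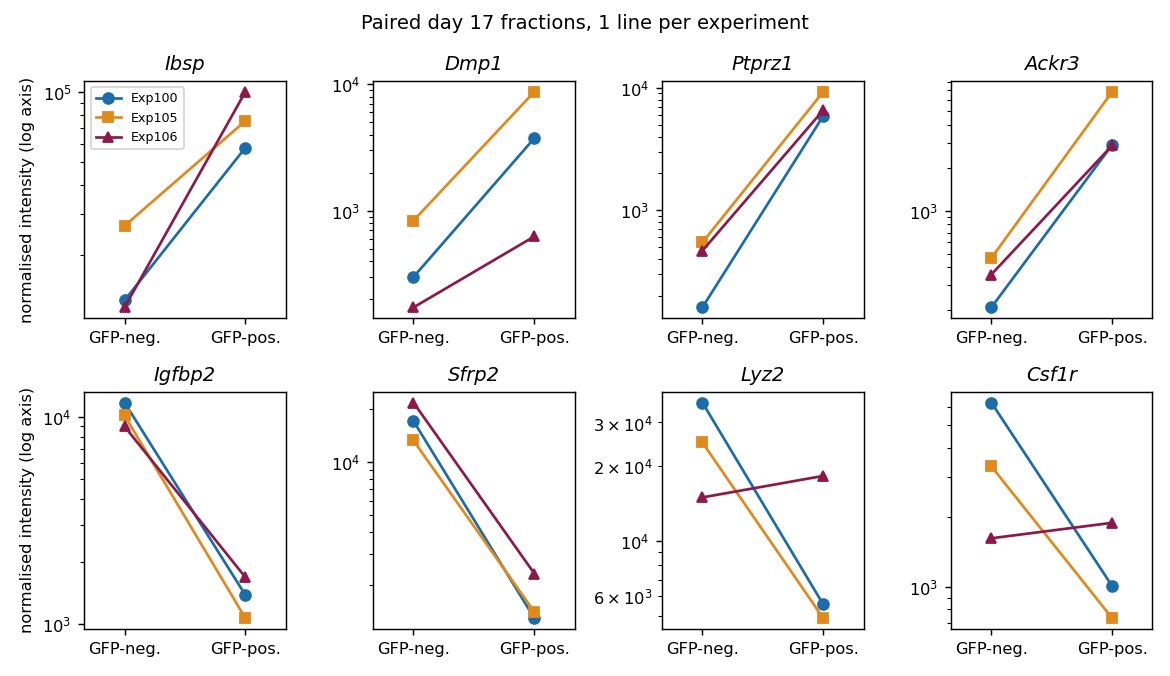
Normalised intensity (y axis, log scale, each panel with its own range) of single genes in the GFP-negative and GFP-positive fractions, with 1 line per experiment. Ibsp, Dmp1, Ptprz1 and Ackr3 rise and Igfbp2 and Sfrp2 fall along all lines, while the Exp106 lines of the macrophage genes Lyz2 and Csf1r run level or upward against falls in Exp100 and Exp105.

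Promoter sequence is shown for 5 genes that bear on the results below: the bone matrix genes Ibsp and Dmp1 and the chemokine receptor gene Ackr3, which rose, and Igfbp3 and Meox2, which fell. They were chosen after their matches were known. Each run is the 250 bases before an annotated start from RefSeq (build GRCm38.p6), 5′ to 3′ on the gene's strand, and capitals mark the motif.
Ibsp: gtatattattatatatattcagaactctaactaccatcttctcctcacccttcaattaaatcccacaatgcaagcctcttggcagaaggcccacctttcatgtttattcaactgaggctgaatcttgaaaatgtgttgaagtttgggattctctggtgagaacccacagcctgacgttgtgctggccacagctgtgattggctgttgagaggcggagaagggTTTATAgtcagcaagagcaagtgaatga
Dmp1: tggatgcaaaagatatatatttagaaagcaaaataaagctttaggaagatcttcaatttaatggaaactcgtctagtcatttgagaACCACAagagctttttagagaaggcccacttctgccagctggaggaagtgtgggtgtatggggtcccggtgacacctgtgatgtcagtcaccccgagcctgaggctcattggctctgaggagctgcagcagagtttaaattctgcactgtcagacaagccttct
Ackr3: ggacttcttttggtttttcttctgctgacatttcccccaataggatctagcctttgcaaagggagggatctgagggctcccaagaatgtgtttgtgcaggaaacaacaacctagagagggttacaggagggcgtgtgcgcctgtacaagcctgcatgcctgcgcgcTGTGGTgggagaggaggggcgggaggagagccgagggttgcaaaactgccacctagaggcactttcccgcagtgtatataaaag
Igfbp3: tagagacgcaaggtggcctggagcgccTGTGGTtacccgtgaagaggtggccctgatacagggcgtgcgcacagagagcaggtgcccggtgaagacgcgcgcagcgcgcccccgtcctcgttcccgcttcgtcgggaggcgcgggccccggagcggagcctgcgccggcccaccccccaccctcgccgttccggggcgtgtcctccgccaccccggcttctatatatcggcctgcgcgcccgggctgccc
Meox2: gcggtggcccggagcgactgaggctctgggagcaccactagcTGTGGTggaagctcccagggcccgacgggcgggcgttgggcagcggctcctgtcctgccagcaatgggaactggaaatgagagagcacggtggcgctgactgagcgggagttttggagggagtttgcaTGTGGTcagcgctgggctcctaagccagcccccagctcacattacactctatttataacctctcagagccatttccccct

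The Ibsp run is chr5:104299037-104299286 (plus strand) and holds the TATA box motif TATAAA on the opposite strand, at position -28 from the start, and the bone sialoprotein promoter is known for its inverted TATA box. The runs of Dmp1, chr5:104202367-104202616 (plus strand), Ackr3, chr1:90203730-90203979 (plus strand), Igfbp3, chr11:7213924-7214173 (minus strand), and Meox2, chr12:37108290-37108539 (plus strand), hold TGTGGT, the core of the sites bound by Runx factors, at positions -164, -84, -223, and -208 and -80. The letters TATAAA or their reverse complement are also in the runs of Ackr3 and Meox2, where capitals mark TGTGGT alone. The TGTGGT of Dmp1 lies on the opposite strand and belongs to the second of its annotated starts. With both strands searched, TGTGGT was in 14% of all 32851 promoters of the table, in 10.7% of 10864 promoters of tested genes, in 7.69% of 143 promoters of genes that rose and in 11.7% of 290 of genes that fell. TATAAA was in 12.4%, 7.22%, 8.39% and 8.28% of the same groups. The AP-1 motif TGANTCA was in 4.65% of promoters of tested genes, 6.99% of those that rose and 8.62% of those that fell, and the CArG box in 1.25%, 1.4% and 2.07%. The CArG box is the binding sequence of serum response factor, it can contain TATAAA, and no other motif searched can contain another. Promoters matched 99 of 138 genes that rose and 224 of 292 that fell. A match is a description of letters, and the shares are given without a test.

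Among genes of transcription factors the called changes were more often falls, as they were over all genes. Of 590 measured, 337 were tested, 4 were higher and 12 lower, with a median of -0.09. Meox2, a homeobox factor of mesoderm, had 1390.0, 954 and 997 in the GFP-negative and 109, 161 and 75.5 in the GFP-positive fractions (-2.98 ± 0.34, adjusted p = 0.00663). Prrx2, a paired-related homeobox factor of limb and skull mesenchyme, had 9501, 12648 and 5455 in the GFP-negative and 3272, 3883 and 1779 in the GFP-positive fractions (-1.61 ± 0.16, adjusted p = 0.00369). Six2, a homeobox factor that keeps progenitors undifferentiated in other organs, fell (-1.32 ± 0.17, adjusted p = 0.00911). These were the called genes among 50 tested homeobox and paired box genes, and for each the fractions did not overlap. Dlx5, a homeobox factor of osteoblasts, did not pass (-0.18 ± 0.27, adjusted p = 0.783).

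Zfp521, a zinc finger protein known to bind Runx2 and restrain it, had 3357, 3200.3 and 2483 in the GFP-negative and 864, 799 and 127 in the GFP-positive fractions (-2.62 ± 0.40, adjusted p = 0.0191). Among 58 Kruppel-like and other zinc finger genes tested, the falls were Plagl1, an imprinted growth regulator (-2.11 ± 0.42, adjusted p = 0.0439), Snai2, Slug, a repressor of epithelial genes (-1.43 ± 0.14, adjusted p = 0.00369), and Zic1, a factor of neural and cranial patterning (-0.81 ± 0.16, adjusted p = 0.0443). Hmga2, a chromatin protein of embryonic mesenchyme, fell from 369.9, 251 and 369 to 33.4, 50.5 and 50.5 (-2.23 ± 0.37, adjusted p = 0.0259), close to the pseudocount. Ahr, the aryl hydrocarbon receptor, fell (-2.57 ± 0.36, adjusted p = 0.0136), and Cyp1b1 is known as its target. Foxp2, a forkhead factor, fell (-2.29 ± 0.33, adjusted p = 0.0154). Nfix, a nuclear factor I protein (-1.46 ± 0.25, adjusted p = 0.0266), and Aebp1 (-1.61 ± 0.20, adjusted p = 0.00863), named as a repressor though it is also made as a secreted matrix protein, fell as well.

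The rises were few. Mef2c, a MADS box factor active in osteocytes, had 1894, 3072 and 886 in the GFP-negative and 7307, 7338 and 2494 in the GFP-positive fractions (1.55 ± 0.25, adjusted p = 0.0233). Klf4, a Kruppel-like factor also induced by cell dispersal, had 1341, 1942 and 2675 in the GFP-negative and 7563, 6181 and 5000.1 in the GFP-positive fractions (1.67 ± 0.28, adjusted p = 0.0249), with differences of 2.47, 1.65 and 0.89. Both leucine zipper factors that rose act in secretory and stress responses: Atf4, which drives amino acid supply and is needed for osteoblast maturation (0.71 ± 0.11, adjusted p = 0.0217), and Creb3l1, which drives collagen secretion (0.97 ± 0.19, adjusted p = 0.0435). Jdp2, a leucine zipper factor outside the list, was called lower (-0.87 ± 0.16, adjusted p = 0.0343). Limma called none of 19 nuclear receptor genes and none of 36 genes of the Smad, Stat, Irf, NF-kB, Nfat and Ets families, and their median differences were -0.13 and -0.09. Vdr, the vitamin D receptor, was too dim to be tested, with 387, 369 and 218 against 843, 593 and 254. Prrx2 and Snai2 held. Counts of genes higher and lower in the list were 0 and 5 without Exp100, 0 and 4 without Exp105, 7 and 17 without Exp106, and 1 and 8 without the block.

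**Figure D4:**
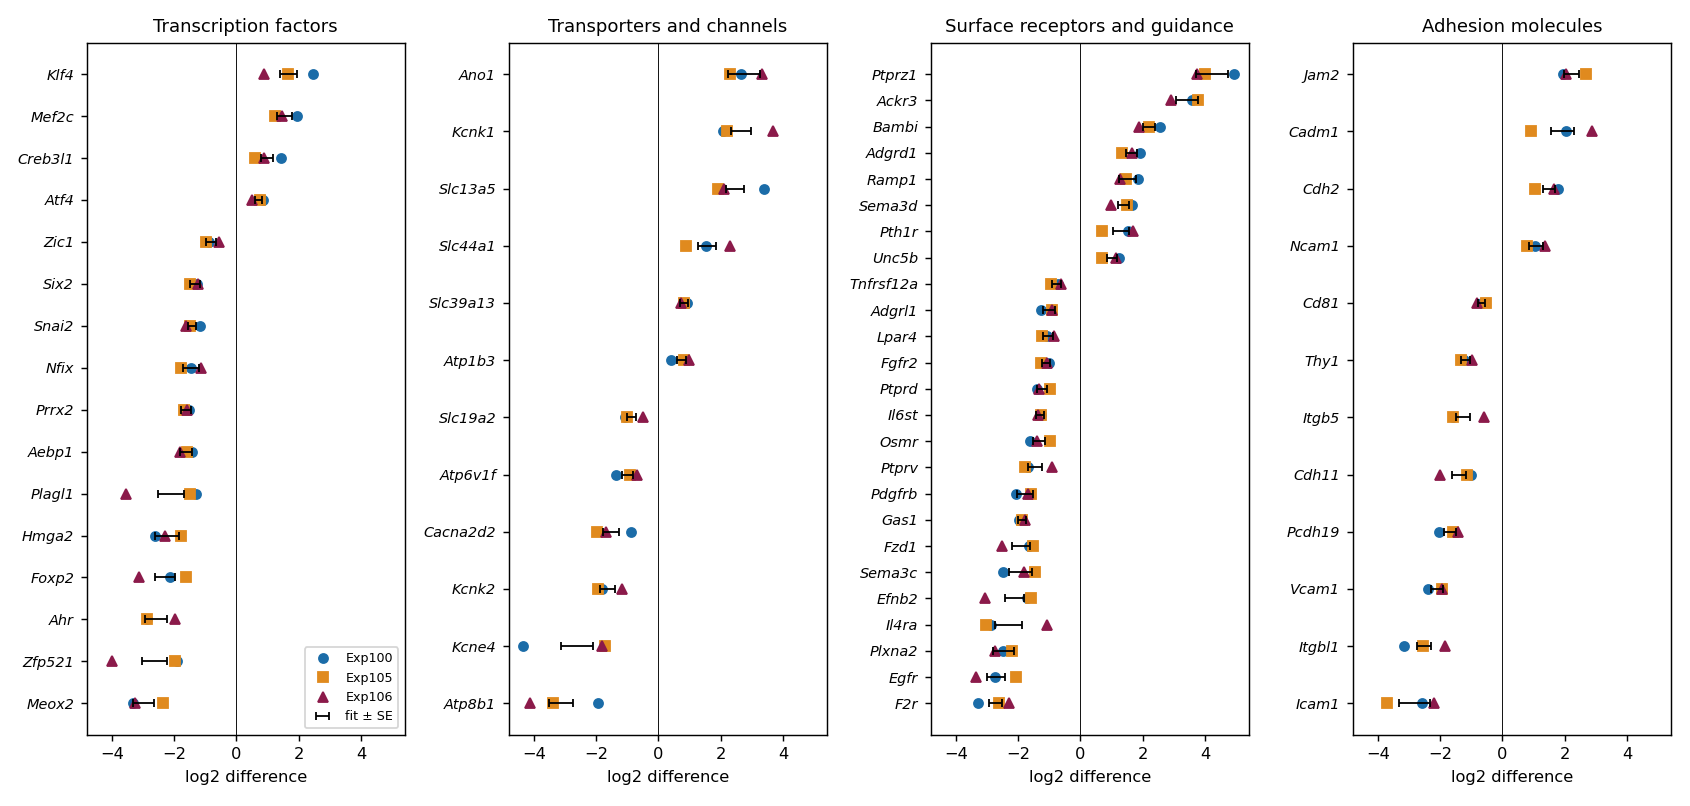
Log2 differences (x axis, GFP-positive minus GFP-negative) of called genes of transcription factors, transporters and channels, surface receptors and guidance molecules, and adhesion molecules in Exp100, Exp105 and Exp106, with the fitted difference and its SE as bars. Every point lies on the same side of 0 as its bar, and the spread between experiments is widest for genes such as Kcne4, Plagl1, Zfp521 and Atp8b1.

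Few transporter genes were called. Of 273 tested (444 measured) 4 were higher and 3 lower, with a median of 0.04, so the called share lay below the background. Slc13a5, the plasma membrane carrier of citrate, had 2243, 6512 and 2108 in the GFP-negative and 24019.8, 24443 and 9163 in the GFP-positive fractions (2.47 ± 0.29, adjusted p = 0.00759). Every positive sample lay above every negative one, though the negative sample of Exp105 was well above the others. Slc44a1, a choline carrier, had 1933, 2542 and 2198 in the GFP-negative and 5603, 4695 and 10818 in the GFP-positive fractions (1.56 ± 0.29, adjusted p = 0.0364). Slc39a13, the zinc carrier ZIP13 of the secretory pathway, whose loss gives a connective tissue disorder, rose (0.82 ± 0.13, adjusted p = 0.0195) with differences of 0.92, 0.82 and 0.72. Slc19a2, a thiamine carrier, fell (-0.86 ± 0.16, adjusted p = 0.035).

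Among pumps, Atp1b3, a beta subunit of the sodium pump, rose (0.74 ± 0.14, adjusted p = 0.041), and the proton pump subunit gene Atp6v1f fell (-0.99 ± 0.17, adjusted p = 0.0263). Atp8b1, a flippase that moves phospholipids between membrane leaflets, had 2257, 3520.1 and 3859 in the GFP-negative and 571, 311 and 193 in the GFP-positive fractions (-3.14 ± 0.39, adjusted p = 0.00883), and its fall was larger in Exp106 (-4.12) than in Exp100 (-1.92). None of 28 ABC transporter genes passed limma. Of the genes that move phosphate and pyrophosphate, which set whether mineral can form, none passed. Slc20a1 differed by 0.26 ± 0.24 (adjusted p = 0.629) and Ank, the pyrophosphate exporter (-0.08 ± 0.20, adjusted p = 0.873). Slc20a2 had differences of -1.78, -1.79 and -0.01 and did not pass (adjusted p = 0.157), with a level difference near 0 in Exp106 alone. Slc13a5 held. The refits gave, as genes higher and lower, 1 and 1 without Exp100, 1 and 0 without Exp105, 5 and 10 without Exp106, and 2 and 1 without the block.

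Of 99 tested ion channel genes 2 were higher and 3 lower. The two-pore-domain potassium channel genes went in opposite directions. Kcnk1 had 1545, 3237 and 859 in the GFP-negative and 6672, 14907 and 11265 in the GFP-positive fractions (2.65 ± 0.33, adjusted p = 0.00865), and Kcnk2, the mechanosensitive channel TREK-1, had 1684, 1468 and 1641 in the GFP-negative and 462, 358 and 711 in the GFP-positive fractions (-1.64 ± 0.25, adjusted p = 0.0193). Ano1, a chloride channel opened by calcium, had 756, 1159 and 378 in the GFP-negative and 4873, 5868 and 4090.4 in the GFP-positive fractions (2.76 ± 0.52, adjusted p = 0.0378). Kcne4, an accessory subunit of potassium channels (-2.62 ± 0.51, adjusted p = 0.0409, differences -4.36, -1.70 and -1.80), and Cacna2d2, an accessory subunit of calcium channels (-1.51 ± 0.26, adjusted p = 0.0293), fell. Gja1, connexin 43, the gap junction protein that couples osteoblasts and osteocytes, had differences of 0.04, 0.46 and 0.89 and did not pass (0.46 ± 0.16, adjusted p = 0.191). Of the channel genes Kcnk1 held. Rises and falls in the list numbered 1 and 1 without Exp100, 1 and 0 without Exp105, 2 and 1 without Exp106, and 1 and 1 without the block.

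Surface receptors changed in both directions, falls being more frequent as over all genes. Of 228 tested (456 measured), 8 were higher and 17 lower, with a median of -0.15. Among 22 receptor tyrosine kinase genes 3 fell and 0 rose. Egfr, the receptor for epidermal growth factor, had 2979, 1755 and 1685 in the GFP-negative and 415, 399 and 136 in the GFP-positive fractions (-2.72 ± 0.29, adjusted p = 0.00523). Pdgfrb, a receptor for platelet-derived growth factor, had 1030.4, 1019 and 1340.2 in the GFP-negative and 219.7, 319 and 395 in the GFP-positive fractions (-1.78 ± 0.26, adjusted p = 0.0154), and Fgfr2 had 9346, 12282 and 7891 in the GFP-negative and 4678, 5082 and 3774 in the GFP-positive fractions (-1.11 ± 0.14, adjusted p = 0.00912). In each the fractions did not overlap. The related receptors read differently: Pdgfra differed by -0.51 ± 0.16 (adjusted p = 0.159) and Fgfr1 (0.77 ± 0.19, adjusted p = 0.0848), neither passing, and the differences between related receptors were not tested. Efnb2, a membrane-bound ephrin ligand, fell (-2.12 ± 0.32, adjusted p = 0.0182).

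Receptor tyrosine phosphatase genes included the largest rise with 1 probe set per gene, Ptprz1, and falls of Ptprd (-1.23 ± 0.15, adjusted p = 0.00863) and Ptprv (-1.46 ± 0.23, adjusted p = 0.0197), the phosphatase also called osteotesticular, which is known from osteoblasts. Bambi, a decoy receptor that lacks the kinase domain and blocks TGF-beta and BMP receptors, had 4857, 8249 and 1273 in the GFP-negative and 28792, 37731 and 4823 in the GFP-positive fractions (2.21 ± 0.20, adjusted p = 0.00274). Its level in Exp106 was lower in both fractions, and the fractions overlapped through that experiment. Bmpr1a, a BMP receptor, did not pass (-0.31 ± 0.29, adjusted p = 0.645). Tgfbr2 was too dim to be tested on array A, but its B probe set had 15347, 15076 and 13715 against 4308, 4972 and 5899.9 and differed by -1.54 ± 0.16 (adjusted p = 0.00493).

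Among 33 cytokine and TNF family receptor genes 4 fell and 0 rose. Il6st, the gp130 chain shared by receptors for interleukin 6 and related cytokines, had 3723, 3962 and 5785 in the GFP-negative and 1518, 1638 and 2211 in the GFP-positive fractions (-1.30 ± 0.13, adjusted p = 0.00457). Osmr, the oncostatin M receptor that pairs with gp130, fell (-1.33 ± 0.20, adjusted p = 0.0177), Il4ra, a chain of the interleukin 4 receptor (-2.32 ± 0.44, adjusted p = 0.0385) and Tnfrsf12a, the receptor for TWEAK (-0.77 ± 0.14, adjusted p = 0.0301). The fall of Il4ra, which blood cells also express, was -1.06 in Exp106, where the macrophage list's median was 0.10, against -2.87 and -3.02. The part of blood cells in the fall of Il4ra was not tested. Fzd1, a Wnt receptor, fell (-1.90 ± 0.29, adjusted p = 0.0183), while Lrp6, a Wnt coreceptor, did not pass (-0.05 ± 0.25, adjusted p = 0.95) and Lrp5 was too dim to be tested. Gas1, a membrane protein that binds hedgehog ligands, had 6329, 5449.8 and 4958 in the GFP-negative and 1589.6, 1466 and 1429 in the GFP-positive fractions (-1.87 ± 0.14, adjusted p = 0.00165). Notch1 and Notch2 did not pass (-0.35 ± 0.64, adjusted p = 0.829 and -0.49 ± 0.30, adjusted p = 0.457), and Notch1 went the other way in Exp106.

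Among 77 tested G protein-coupled receptor genes and their partners 4 rose and 3 fell. The list is not complete: P2ry10b, a receptor gene outside it, was also called lower (-0.64 ± 0.11, adjusted p = 0.031). Ackr3, an atypical receptor that takes up the chemokine CXCL12, had 210.0, 466 and 357 in the GFP-negative and 2889.8, 6799 and 2862 in the GFP-positive fractions (3.42 ± 0.34, adjusted p = 0.00411). Its ligand gene Cxcl12 went the other way, with 5661, 2885 and 6375 in the GFP-negative and 446, 282 and 854 in the GFP-positive fractions (-3.21 ± 0.21, adjusted p = 0.00116). For both genes the fractions did not overlap, and both held. Pth1r, the receptor for parathyroid hormone, had 4045, 7316 and 1697 in the GFP-negative and 11751, 11816 and 5537 in the GFP-positive fractions (1.3 ± 0.27, adjusted p = 0.0488). Ramp1, a protein that turns the calcitonin receptor-like receptor into the CGRP receptor, rose (1.53 ± 0.27, adjusted p = 0.0328), and Adgrd1, an adhesion-type receptor (1.63 ± 0.18, adjusted p = 0.00578). F2r, the thrombin receptor, had 8550.3, 6794 and 10281 in the GFP-negative and 852, 1086 and 2054 in the GFP-positive fractions (-2.73 ± 0.21, adjusted p = 0.00181). Lpar4, a receptor for lysophosphatidic acid (-1.05 ± 0.16, adjusted p = 0.0197), and Adgrl1, latrophilin 1 (-1.02 ± 0.19, adjusted p = 0.0356), fell as well.

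Axon guidance molecules, which also act in bone, changed in both directions. Sema3d, a secreted semaphorin, had 4835, 6694 and 4723 in the GFP-negative and 15474, 18788 and 9401 in the GFP-positive fractions (1.38 ± 0.18, adjusted p = 0.0105), and Sema3c had 372, 575 and 142 in the GFP-negative and 39.4, 191 and 17.4 in the GFP-positive fractions (-1.92 ± 0.37, adjusted p = 0.0409). Plxna2, a semaphorin receptor, fell (-2.48 ± 0.34, adjusted p = 0.0135), and Unc5b, a netrin receptor, rose (1.02 ± 0.16, adjusted p = 0.0206). The group had 32 tested members. Over all receptor groups the calls of Egfr, Gas1, Ackr3, Adgrd1 and F2r held. Counts of genes higher and lower in the list were 3 and 4 without Exp100, 3 and 7 without Exp105, 6 and 23 without Exp106, and 3 and 6 without the block.

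The called cadherin genes moved in opposite directions. Cdh2, N-cadherin, had 2098, 3589.9 and 2302 in the GFP-negative and 7278, 7449.8 and 7269 in the GFP-positive fractions (1.49 ± 0.19, adjusted p = 0.0105), and Cdh11, osteoblast cadherin, had 2802, 3329 and 4349 in the GFP-negative and 1361, 1479.9 and 1053 in the GFP-positive fractions (-1.40 ± 0.22, adjusted p = 0.0218). Neither overlapped between fractions. Of 79 tested adhesion genes 4 rose and 8 fell, with a median of -0.06. The other rises were in immunoglobulin superfamily genes: Jam2, a junctional adhesion molecule (2.22 ± 0.24, adjusted p = 0.00537), Cadm1 (1.94 ± 0.37, adjusted p = 0.0387) and Ncam1 (1.07 ± 0.22, adjusted p = 0.0466), both cell adhesion molecules also used at nerve contacts.

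Vcam1, a ligand for leukocyte and progenitor integrins, had 2749.7, 1991 and 5321 in the GFP-negative and 496, 490.0 and 1348 in the GFP-positive fractions (-2.10 ± 0.18, adjusted p = 0.00265), and Icam1, an integrin ligand induced by inflammation, fell (-2.83 ± 0.51, adjusted p = 0.0332). Thy1, the stromal surface antigen CD90 (-1.18 ± 0.16, adjusted p = 0.0111), Cd81, a tetraspanin (-0.67 ± 0.12, adjusted p = 0.0342), and Pcdh19, a protocadherin (-1.68 ± 0.19, adjusted p = 0.00609), fell too. Of the integrin group, Itgb5, a beta subunit that binds vitronectin, fell (-1.26 ± 0.23, adjusted p = 0.0324) and Itgbl1, a secreted relative, had 37770.3, 35490.4 and 15196 in the GFP-negative and 4184, 5985 and 4253 in the GFP-positive fractions (-2.52 ± 0.23, adjusted p = 0.00318). Icam1 and Vcam1 were also lower in Exp106 (-2.19 and -1.96). Jam2 and Itgbl1 held. The refits gave, as genes higher and lower, 1 and 3 without Exp100, 3 and 3 without Exp105, 2 and 8 without Exp106, and 1 and 4 without the block.

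In the insulin-like growth factor (IGF) pathway all calls were falls. Igf2, the growth factor, had 52211, 41848 and 56236 in the GFP-negative and 9008, 8049 and 15018 in the GFP-positive fractions (-2.27 ± 0.13, adjusted p = 0.00116). Igfbp2, one of the binding proteins that hold IGFs outside the cell, had 11742, 10174 and 9000.0 in the GFP-negative and 1379, 1066 and 1679.8 in the GFP-positive fractions (-2.89 ± 0.19, adjusted p = 0.00116), Igfbp4 had 14735, 16789 and 14436 in the GFP-negative and 3458, 4355 and 5905 in the GFP-positive fractions (-1.77 ± 0.20, adjusted p = 0.00578), and Igfbp3 fell (-2.73 ± 0.31, adjusted p = 0.00624). The fractions of these genes did not overlap. Of 12 tested members of the pathway 5 fell and 0 rose, and the median was -1.13, with -1.37, -0.99 and -0.73 by experiment. Igf2, Igfbp2 and Igfbp4 held. Rises and falls in the list numbered 0 and 4 without Exp100, 0 and 4 without Exp105, 0 and 6 without Exp106, and 0 and 3 without the block.

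In the BMP and TGF-beta pathway 2 ligand genes moved in opposite directions. Bmp8a had 364, 520.0 and 635 in the GFP-negative and 3162, 4494 and 2556 in the GFP-positive fractions (2.67 ± 0.37, adjusted p = 0.0136), and Gdf10, which is also called Bmp3b and opposes BMP signalling, had 4839, 4352 and 3399 in the GFP-negative and 561, 525 and 414 in the GFP-positive fractions (-2.99 ± 0.25, adjusted p = 0.00241), its differences being -3.04, -2.98 and -2.94. Extracellular binders fell in 5 of 15 cases and rose in 0, with a median of -0.68. Fst, follistatin, which traps activins, had 5769, 4997 and 2439.7 in the GFP-negative and 559, 805 and 827 in the GFP-positive fractions (-2.47 ± 0.38, adjusted p = 0.0195). Fstl1, a follistatin-like protein (-1.97 ± 0.25, adjusted p = 0.00912), and Ltbp2, of the latent TGF-beta binding family (-2.0 ± 0.40, adjusted p = 0.0465), fell as well. Tob1, an antiproliferative protein that restrains Smads, rose (0.94 ± 0.16, adjusted p = 0.0281). Over 47 tested members the median was -0.45, with -0.46, -0.63 and -0.16 by experiment, and 2 rose and 8 fell. Gdf10 held. Counts of genes higher and lower in the list were 0 and 3 without Exp100, 0 and 2 without Exp105, 2 and 14 without Exp106, and 1 and 4 without the block.

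Of 47 tested Wnt pathway genes 1 rose and 4 fell, with a median of -0.05. The secreted Wnt antagonists Sfrp1 and Sfrp2 fell. They were the called genes among 7 tested secreted antagonists, of which 4 lay above 0, with a median of 0.08. Sfrp1 had 3909, 1645 and 3557 in the GFP-negative and 459, 263 and 839 in the GFP-positive fractions (-2.52 ± 0.25, adjusted p = 0.00372), and Sfrp2 had 17115, 13257 and 21789.8 in the GFP-negative and 1297, 1409 and 2325 in the GFP-positive fractions (-3.37 ± 0.20, adjusted p = 0.00116). Wls, the carrier that brings Wnt ligands to the surface, fell (-1.09 ± 0.15, adjusted p = 0.0141). The matricellular genes Ccn4 and Ccn5, both first known as Wnt-induced, went in opposite directions, with differences of 1.53, 1.05 and 1.72 (adjusted p = 0.00609) and -2.76, -1.85 and -1.30 (adjusted p = 0.0156). Sfrp2 held. The refits gave, as genes higher and lower, 0 and 2 without Exp100, 1 and 2 without Exp105, 1 and 4 without Exp106, and 1 and 3 without the block.

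Of 54 tested genes of the FGF, PDGF and related growth factor pathways 1 rose and 4 fell. Pdgfa, a PDGF chain, had 2443, 3213 and 2364 in the GFP-negative and 7084, 5586 and 6825 in the GFP-positive fractions (1.28 ± 0.20, adjusted p = 0.0198). Of the PDGF receptor genes, Pdgfra did not pass and Pdgfrb fell, and no pairing of ligand and receptor was tested. Fgf7, a mesenchymal growth factor that acts on epithelium, had 2990.2, 2066 and 1373 in the GFP-negative and 619, 481 and 226 in the GFP-positive fractions (-2.23 ± 0.22, adjusted p = 0.00372), and Mdk, midkine, a heparin-binding factor that is a ligand of PTPRZ1, fell (-1.54 ± 0.21, adjusted p = 0.013). In the Notch pathway (16 tested) the ligand gene Jag1 had 2038, 1365 and 4267 in the GFP-negative and 427, 187 and 1067 in the GFP-positive fractions (-2.27 ± 0.25, adjusted p = 0.00578) and Adam10, the protease that cleaves Notch at the surface, rose (0.95 ± 0.17, adjusted p = 0.0301). Of 10 hedgehog pathway genes Gas1 was the 1 called. In cAMP and prostaglandin signalling (24 tested) Pth1r and Ptgis, prostacyclin synthase, rose, the latter from 3010.3, 5184 and 2559 to 15167, 16789 and 11393 (2.05 ± 0.17, adjusted p = 0.00241). Pde3a, a phosphodiesterase that breaks down cAMP (-2.34 ± 0.37, adjusted p = 0.0205), and Prkar2b, a regulatory subunit of protein kinase A (-1.97 ± 0.32, adjusted p = 0.0248), fell. Fgf7, Gas1 and Ptgis held. Genes of the FGF and PDGF list higher and lower were 0 and 1 without Exp100, 1 and 2 without Exp105, 2 and 5 without Exp106, and 1 and 2 without the block, and those of the cAMP list 1 and 1 without Exp100, 1 and 0 without Exp105, 1 and 4 without Exp106, and 1 and 2 without the block.

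**Figure D5:**
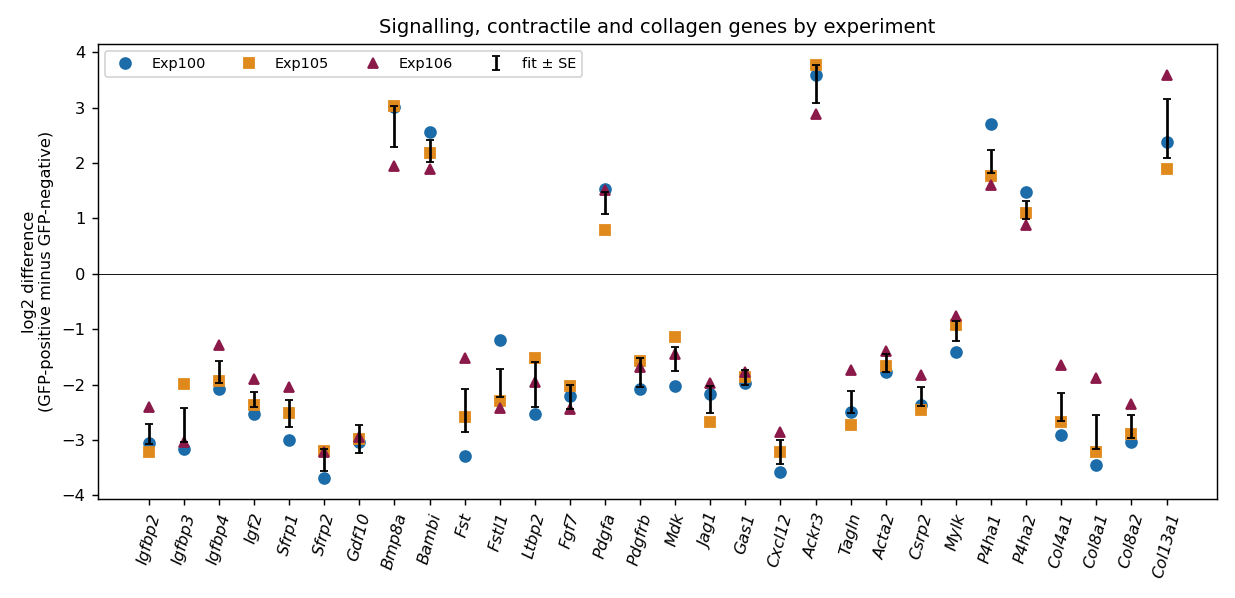
Log2 differences (y axis, GFP-positive minus GFP-negative) of named signalling, contractile and collagen genes (x axis) in Exp100, Exp105 and Exp106, with the fitted difference and its SE as bars. The IGF binding proteins, Sfrp1, Sfrp2 and Gdf10 lie below 0 in every experiment, and Bmp8a, Bambi, Pdgfa, Ackr3, P4ha1, P4ha2 and Col13a1 above it.

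Actin and contractile genes fell in 8 of 36 tested cases and rose in 0, with a median of -0.44 and -0.39, -0.51 and -0.35 by experiment. Acta2, smooth muscle actin, had 25311, 28844 and 21332 in the GFP-negative and 7401, 9089 and 8102 in the GFP-positive fractions (-1.61 ± 0.16, adjusted p = 0.00369). Tagln, transgelin, which binds actin filaments, had 18148, 16136 and 7508 in the GFP-negative and 3201, 2418 and 2242 in the GFP-positive fractions (-2.31 ± 0.19, adjusted p = 0.00241). Csrp2, a LIM protein of smooth muscle, fell (-2.22 ± 0.17, adjusted p = 0.00181), Synpo, synaptopodin (-1.50 ± 0.27, adjusted p = 0.0337) and Mylk, the myosin light chain kinase (-1.03 ± 0.18, adjusted p = 0.0324). Cnn1, a contractile marker, did not pass (-1.69 ± 0.39, adjusted p = 0.0714), and Myh11, the myosin that defines mature smooth muscle, was near the floor at 12.5, 18.6 and 10.6 against 45.9, 114 and 42.5. Acta2 and Tagln held. Rises and falls in the list numbered 0 and 4 without Exp100, 0 and 5 without Exp105, 0 and 12 without Exp106, and 0 and 2 without the block.

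Of 104 tested microtubule and neurite genes 1 rose and 5 fell. Cpe, carboxypeptidase E, which trims peptide hormones, had 2269.9, 5327 and 2044 in the GFP-negative and 11720.4, 19725 and 16216 in the GFP-positive fractions (2.40 ± 0.30, adjusted p = 0.00883), and Pam, which amidates peptide hormones, fell (-1.73 ± 0.28, adjusted p = 0.0239). Marcks (-1.72 ± 0.21, adjusted p = 0.00832) and Marcksl1 (-1.51 ± 0.25, adjusted p = 0.0247), which link actin to the membrane, and the kinase gene Dclk1 (-1.42 ± 0.23, adjusted p = 0.0215) fell. Counts of genes higher and lower in the list were 0 and 0 without Exp100, 1 and 1 without Exp105, 2 and 6 without Exp106, and 1 and 2 without the block.

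Collagen genes other than type I moved in both directions. Of 28 tested 2 rose and 8 fell, with a median of -0.33. Col8a1 and Col8a2, the chains of the network-forming type VIII, fell together. Col8a1 had 26141, 17010.3 and 19368 in the GFP-negative and 2363, 1791 and 5248 in the GFP-positive fractions (-2.85 ± 0.31, adjusted p = 0.00523) and Col8a2 had 7209, 8945 and 5437 in the GFP-negative and 847, 1180.5 and 1044 in the GFP-positive fractions (-2.76 ± 0.21, adjusted p = 0.00181). Col4a1, a basement membrane chain, fell (-2.41 ± 0.26, adjusted p = 0.00512) and Col14a1, a fibril-associated chain (-2.10 ± 0.30, adjusted p = 0.0154). Col13a1, a transmembrane collagen, had 524, 796 and 211 in the GFP-negative and 2864, 3029.7 and 2904 in the GFP-positive fractions (2.62 ± 0.53, adjusted p = 0.0469). Postn, periostin, a matrix protein of the periosteum, fell (-1.15 ± 0.18, adjusted p = 0.0197). Col8a1, Col8a2 and Col4a1 held. The refits gave, as genes higher and lower, 0 and 3 without Exp100, 0 and 3 without Exp105, 0 and 9 without Exp106, and 1 and 4 without the block.

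Extracellular proteases and their inhibitors had 2 of 106 tested genes higher and 16 lower, with a median of -0.30. Adamts5, an aggrecanase, had 6558, 5016 and 18440.2 in the GFP-negative and 1035, 528 and 1572 in the GFP-positive fractions (-3.11 ± 0.29, adjusted p = 0.00318). Cpxm1, a carboxypeptidase-like secreted protein, fell (-2.86 ± 0.35, adjusted p = 0.00829) and Adam33, a membrane metalloprotease (-2.55 ± 0.51, adjusted p = 0.0454), the latter with differences of -3.80, -2.60 and -1.25. Among enzymes that build sugar chains (74 tested, 2 higher and 3 lower), Galnt3 had 566, 933 and 1097 in the GFP-negative and 2433, 3591 and 3145 in the GFP-positive fractions (1.82 ± 0.27, adjusted p = 0.0172). This enzyme is known to add the O-glycan that protects the phosphate hormone FGF23 from cleavage. Sulf1, which removes sulfate from heparan sulfate (-2.12 ± 0.29, adjusted p = 0.0127), Dse, which makes dermatan sulfate (-1.55 ± 0.30, adjusted p = 0.0437), and Hs3st3b1, a heparan sulfotransferase (-1.32 ± 0.19, adjusted p = 0.0152), fell. For the enzymes of sugar chains the genes higher and lower were 0 and 0 without Exp100, 0 and 0 without Exp105, 4 and 5 without Exp106, and 2 and 1 without the block. Adamts5 held. For proteases and inhibitors they were 0 and 6 without Exp100, 1 and 7 without Exp105, 7 and 21 without Exp106, and 1 and 10 without the block.

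In the lists of amino acid, lipid, respiratory and glycolytic genes, all genes that passed were higher in GFP-positive cells. Genes of metabolism outside these lists were called in both directions, with Pdp1, Lpl, Cpt1c and Agpat4 among those lower. P4ha1 and P4ha2, the catalytic subunits of collagen prolyl hydroxylase, for which ascorbic acid is the cofactor, rose together. P4ha1 had 6339, 9427 and 3561 in the GFP-negative and 41553, 32211 and 10960.2 in the GFP-positive fractions (2.03 ± 0.22, adjusted p = 0.00512), and P4ha2 had 4457, 5801 and 6540.3 in the GFP-negative and 12419, 12419 and 12074 in the GFP-positive fractions (1.15 ± 0.17, adjusted p = 0.0157). Gars, the glycyl-tRNA synthetase, rose (1.09 ± 0.14, adjusted p = 0.0105). With P4ha1, P4ha2 and Atf4 this made 4 of 46 tested genes of the amino acid and tRNA charging list higher and 0 lower. Of these Gars alone charges a tRNA. The list's median was 0.30 (0.33, 0.20 and 0.30 by experiment). In cholesterol and fatty acid synthesis 4 of 35 rose and 0 fell: Scd1, a fatty acid desaturase (1.10 ± 0.16, adjusted p = 0.0158), Insig2, a sterol sensor (0.91 ± 0.17, adjusted p = 0.0397), Me1, malic enzyme (0.81 ± 0.14, adjusted p = 0.0293), and Fdft1, squalene synthase (0.75 ± 0.14, adjusted p = 0.0393). The list's medians were 0.61, 0.27 and -0.09, so that of Exp106 lay below 0. Among respiratory chain genes 3 of 75 rose (4%, against 1.3% of all tested genes) and 0 fell. They were Cox6a2, Cox6a1 (0.95 ± 0.18, adjusted p = 0.038) and Uqcrq (0.76 ± 0.12, adjusted p = 0.02). Over all genes the share called in either direction was 4.05%. Of 18 glycolysis genes Ldha, lactate dehydrogenase A, rose (0.49 ± 0.10, adjusted p = 0.0485). Without the block the amino acid and lipid lists had 0 and 0 genes higher, without Exp100 1 and 0, and without Exp105 2 and 1. For respiratory and glycolysis genes these counts were 1 and 0, 1 and 0, and 1 and 0.

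Other probe sets of the same gene did not always share the direction. For 13 of the 147 named genes, Adamts5, Adgrl1, Cpe, Cxcl12, Dclk1, Fgfr2, Gars, Igfbp2, Jag1, Meg3, Plxna2, Prrx2 and Ptprv, at least 1 further tested probe set had the opposite sign, and limma called none of those. The largest such values were, in size, 1.23 for Jag1, 0.71 for Igfbp2 and 0.87 for Dclk1. Probe sets of arrays B and C were often designed from expressed sequence tags, and which transcripts they read was not tested. The caution on probe set suffixes given for Phex is not limited to that gene. Such suffixes are also on the probe sets of Egfl6, Entpd3, Cpe, Cadm1, Cox6a1 and Atp6v1f, among others.

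The same contrast at day 7, between cells with and without pOBCol3.6GFP, gave 0 called probe sets with limma (720 at an unadjusted p under 0.05). The test of the difference between the effects, day 17 minus day 7, called 107 of 22099 probe sets (0.484%), or 71 genes (0.669%), and all 107 were among those called at day 17. Transgene, age of the culture and additions changed together between the days and cannot be told apart. Without Exp105 the test of the difference called 1 probe set and without Exp100 19. Among transcription factor genes Meox2, Prrx2 and Snai2 passed this test, and among surface receptors Ackr3, Bambi, F2r and Gas1. Igf2 and Igfbp2 also passed, with day 7 differences of -0.05 and -0.24. Ptprz1 (-0.04 at day 7) and Slc13a5 (0.33) did not, at adjusted p = 0.0716 and 0.102.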

How the data were processed

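The authors deposited whole-number intensities, at least 10 and not logged, for each probe set of Affymetrix arrays A, B and C. The probe summary and scaling are not given in the sources used here. Trimmed means (2% off each end) of the day 17 arrays lay between 1069 and 1541 on A, 1367 and 1723 on B and 1259 and 1606 on C, and the 3 pairs limit the precision. Values were log2(intensity + 32), quantile-normalised within array type, which understates changes of dim genes. Printed intensities are normalised values back on the linear scale. Probe sets above the array's median on at least 3 of the 12 sorted arrays were tested.

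limma 3.58.1 in R 4.3.3 fitted the 12 sorted samples with experiment as a fixed block and a GFP effect per day (eBayes with a trend), with Benjamini-Hochberg adjustment over the tested probe sets. Pairs rest on the experiment names. On A, B and C the deviations of both fractions of an experiment from their group means correlated at 0.466, 0.273 and 0.141 in Exp100, 0.589, 0.39 and 0.15 in Exp105 and 0.671, 0.506 and 0.427 in Exp106, against at most 0.558, 0.309 and 0.161 between experiments. Exp100 lay below the highest value between experiments on every array type, and Exp105 did on C. These correlations therefore do not bear out the pair of Exp100, which rests on its name.

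A single gene was named for 29131 probe sets (29044 matched RefSeq), more than 1 for 724, and 6846 stayed unnamed. Each gene is read by its brightest probe set on the first array type that holds it. Members, lists and tests were chosen with earlier results of these data known. Named are up to 4 called rises and 4 falls per list or role, the 10 largest of each, and a fixed set of bone genes. Except for the fixed set, a named rise or fall had to go the same way in all 3 experiments. The array B probe set of Tgfbr2 and the further ones of Phex were added after their values were seen. Alternatives were no block, a random block (statmod 1.5.0), day 17 alone, other pseudocounts and filters, the deposited scale, no trend, and each experiment left out. Normalisation over sorted arrays, and no block without Exp106, were added after seeing the data. On simulated data for the day 17 effect (22099 probe sets) 59 of 100 changes of log2 2 and 68 of 100 of log2 3 were recovered, with 5 false calls.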

Additional observations from a re-analysis of the deposited data

Results flagged for a closer look

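Among named genes, 36 had a day 17 effect that differed from the day 7 effect by the test of the difference in limma (adjusted p under 0.05). The log2 values that follow are the day 17 effect minus the day 7 effect. More positive at day 17 were Ackr3 3.67, Cpe 3.62, Cox6a2 2.74, Ptgis 2.01 and Bambi 1.91. More negative were Egfl6 -3.91, Sfrp2 -3.74, Ccn3 -3.63, C1s1 -3.54, Rhoj -3.42, Col8a1 -3.41, Meox2 -3.38, Mxra7 -3.37, Meg3 -3.31, Adamts5 -3.03, Prss23 -3.02, F2r -3.0, Gdf10 -2.94, Cxcl12 -2.79 and Sulf1 -2.69. Smaller negative differences were those of Igfbp2 -2.66, Itgbl1 -2.56, Col8a2 -2.55, Col4a1 -2.50, Tagln -2.46, Csrp2 -2.32, Fgf7 -2.23, Igf2 -2.22, Vcam1 -2.15, Mgp -2.03, Gas1 -1.82, Pcdh19 -1.81, Fmod -1.77, Acta2 -1.65, Prrx2 -1.53 and Snai2 -1.51. Without Exp105 the difference of the effects was called for 1 probe set in all, and without Exp100 for 19. Groups of 3 samples were too small for the test of single outlying samples.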

How the results depend on the processing

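The counts of called, higher and lower probe sets (710, 221 and 489) and of the difference of the effects (107) stayed within 1.5 times with a lower and a higher pseudocount, with either other filter, on the deposited scale and with normalisation over the sorted arrays. They fell without the replicate block (282, 63, 219 and 49), without the variance trend (428, 134, 294 and 12) and with only the day 17 samples, which leaves fewer samples for the spread (89, 27 and 62). A random block gave 1010, 326, 684 and 222, and no block without Exp106 783, 251, 532 and 209. With 1 experiment left out the ranges were 168 (Exp100) to 1015 (Exp106), 29 to 330, 139 to 685 and 1 (Exp105) to 224. Of the probe sets called as reported, 271 were called without the block and 554 without Exp106. The cause of the other shifts was not tested.

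Named genes that were called kept their direction in all of 2036 refitted values, and 536 of these no longer passed. Every called gene had moved the same way in all 3 experiments. Refits of the same normalised values, also without 1 experiment, could therefore not turn its sign, and the kept direction is no test of it. Among named genes that were not called some changed sign, such as Dlx5 without Exp105 (-0.18 to 0.08). List medians moved by more than 1 SD of the experiments in 80 of 480 comparisons and changed sign in 37. There were 3 pairs and no detection calls, log2 falls to intensities near the pseudocount (Hmga2, Icam1, Sema3c) are compressed by it, and a missing call does not show equal fractions.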
